A study of Arabidopsis thaliana with 96 samples.

Results

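The comparison described here sets stele cells from Arabidopsis thaliana roots kept for 48 h on medium with 140 mM NaCl against stele cells from roots kept for 48 h on standard medium. The members were taken from the array titles: 3 salt arrays and 3 standard arrays, 6 of the 96 Affymetrix ATH1 arrays of the series. All 6 come from Columbia seedlings that carry the WOL::GFP reporter, a green fluorescent protein under a promoter active in the stele, and roots were harvested 5 to 7 days after germination, turned into protoplasts and sorted for GFP. The whole series holds 4 cell types (epidermis, cortex, endodermis and stele), each with its own reporter line, and 8 conditions per cell type. Epidermis (WER::GFP), cortex (COR::GFP) and endodermis (SCR::GFP), each with 3 salt and 3 standard arrays at 48 h, serve below for comparison. The same time on the medium in both groups leaves salt as the labelled difference between them. Nothing in the labels tells whether replicates are separate cultures. The p-values therefore measure only how far these samples spread, and that spread may be technical.

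The stele is the central cylinder of the root. It holds the xylem, which carries water and ions to the shoot, the phloem, the dividing procambium and the pericycle. Sodium that reaches the xylem is carried to the leaves, and cell wall changes in and around the stele, such as lignin made by peroxidases, are known parts of the root's response to salt. Water stress is also known to call on protective proteins, among them late embryogenesis abundant (LEA) proteins, dehydrins and osmotin.

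Values are levels on the log2 scale as the authors deposited them, and a change is the mean of the salt arrays minus the mean of the standard arrays, with its standard error (SE) from a fit over all 96 arrays. Genes with an adjusted p under 0.05 that changed by 1 or more, that is 2-fold, were called higher or lower. Each salt array correlated with the others of its group at 0.976 to 0.982 and each standard array at 0.971 to 0.985, the lowest being standard replicate 2. Array medians over all probe sets were 4.90 to 4.95 in salt and 4.71 to 4.83 in standard medium. The 3′ minus 5′ signal of the GAPDH control probe sets, a sign of RNA quality, was 0.109, 0.225 and 0.0887 in the salt arrays and 0.497, 0.687 and 0.645 in the standard arrays, with no overlap. For actin it was 3.71 to 4.10 in salt and 3.29 to 3.72 in standard medium, and for both actin and ubiquitin the 2 ranges overlapped. The actin mean was higher in salt (3.935 against 3.537), whereas GAPDH was lower in salt. The part of RNA quality in the results below was not tested.

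The label could be checked only in part. Of 21 stele markers only LHW (AT2G27230), a transcription factor gene of vascular patterning, has a probe set that was tested. LHW stood at 6.25, 5.96 and 5.47 in the salt arrays, against 4.59, 4.19 and 4.35 in the standard arrays, a change of 1.51 (SE 0.20, adjusted p = 1.9e-09). Every salt array lay above every standard array. On standard medium for 48 h, however, the means of LHW lay close together across the cell types, at 4.38 ± 0.20 in the stele, 4.23 in the epidermis, 4.49 in the cortex and 4.67 in the endodermis (SD, n = 3). With salt LHW changed by 0.84, 0.48 and 0.90 in the epidermis, cortex and endodermis, and was called in none of them.

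Of 5 tested markers of the neighbouring cell types 4 were lower in the salt arrays, beside 9.78% of all genes tested. The other, the cortex marker AT1G09750, changed by -0.29 (SE 0.19, adjusted p = 0.181). Summed on a linear scale, the 5 markers of the epidermis, cortex and endodermis came to 491 to 936 in salt, against 1730 to 2720 in standard medium. The cortex marker AT1G62510, a lipid transfer type protein gene, stood at 3.83, 4.57 and 4.19 in salt and 8.44, 8.16 and 8.31 in standard medium, a change of -4.10 (SE 0.40, adjusted p = 1.6e-13). EXPA7 (AT1G12560), an expansin of root hairs, was at 7.32, 7.17 and 8.53 in salt and 9.38, 10.34 and 9.68 in standard medium, and changed by -2.13 (SE 0.46, adjusted p = 5.8e-05). Salt and standard arrays did not overlap for either gene. The root hair expansin EXPA18 changed by -1.23 (SE 0.46) and the endodermal receptor kinase GSO1 by -1.06 (SE 0.23). The call of EXPA18 was lost without salt replicate 1 (-1.04), salt replicate 2 (-1.04) or standard replicate 2 (-0.97), and that of GSO1 without salt replicate 3 (-0.96, adjusted p = 0.0015) or salt replicate 2, where the change was just short of 1. AT1G62510 and EXPA7 also fell in the other 3 cell types. In the epidermis, cortex and endodermis AT1G62510 changed by -2.16, -1.46 and -3.28 and EXPA7 by -2.48, -2.13 and -4.14. No root cap marker was analysed here. A change in the cells that make up the sort and a change in RNA per cell cannot be told apart in such bulk samples, and the part of these markers in the results below was not tested.

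Salt for 48 h changed genes in both directions in the stele. Of 7281 genes tested, 816 were higher (11.2%) and 712 were lower (9.78%), together 21% of all. In 812 of the genes called higher and 695 of those called lower the 3 salt arrays did not overlap the 3 standard arrays. Over all tested genes such a separation was seen upwards in 35.4% and downwards in 26.4%, whether called or not. Large changes were more often falls: 131 genes fell and 68 rose by at least 2 on the log2 scale, that is 4-fold. The median change over all genes was 0.098, so set against the median gene rises are smaller and falls are larger by that amount. The share of rises among the calls was 53.4%, but 47.7% after quantile normalization and 48.1% with each array centred on its median.

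The 15 largest rises among the genes tested held several genes of the cell wall and of water stress. PRX52 (AT5G05340), a class III peroxidase, an enzyme family that oxidises lignin precursors, was at 7.85, 7.46 and 6.32 in the salt arrays and 2.76, 2.64 and 2.75 in the standard arrays. That is a change of 4.50 (SE 0.32, adjusted p = 5.9e-19). The standard arrays were close together near the bottom of the scale, where 26.8% to 27.8% of single-gene probe sets lay below 3, a level not shown to be above background. The size of such a change, and its rank, rest on that low level. OSM34 (AT4G11650), which encodes osmotin 34, a thaumatin family protein known from osmotic stress, stood at 8.07, 7.59 and 7.12 in salt and 3.65, 2.86 and 3.34 in standard medium, and rose by 4.31 (SE 0.34, adjusted p = 5.2e-17). The lipid transfer type gene AT1G73780 was at 6.87, 6.61 and 6.60 in salt and 2.97, 2.53 and 2.93 in standard medium, a rise of 3.89 (SE 0.25, adjusted p = 8.7e-21). In all of these the lowest salt array was far above the highest standard array.

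The dehydrin gene AT4G38410 stood at 9.15, 9.26 and 9.44 in the salt arrays and 6.32, 5.31 and 5.72 in the standard arrays, a rise of 3.50 (SE 0.25, adjusted p = 2.2e-19). CCOAMT (AT1G67980), annotated as a caffeoyl-CoA O-methyltransferase, a type of enzyme that methylates lignin precursors, rose by 2.97 (SE 0.45, adjusted p = 9.7e-08). AER (AT5G16970), an alkenal reductase that detoxifies reactive carbonyls, rose by 2.92 (SE 0.32, adjusted p = 1.5e-11). The peroxidase genes AT4G08780, AT5G06730 and AT4G36430, the dirigent gene AT4G11190 and the lipid transfer type gene AT2G37870 were also among the 15. The remaining members were AT3G48450 (3.44), AT2G24600 (3.42), AT3G54150 (3.07) and AT5G52670 (2.88).

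The largest measured fall was that of AT3G21340, which encodes a receptor kinase with leucine-rich repeats. It was at 3.02, 2.91 and 2.95 in the salt arrays and 7.36, 8.67 and 7.86 in the standard arrays, a change of -5.0 (SE 0.27, adjusted p = 5.0e-25). All 3 salt arrays lay at the low end of the scale, where 28.1% to 30.0% of single-gene probe sets were below 3, so the size of this fall and its rank rest on a level not shown to be above background. The LEA gene AT3G15670 was at 5.54, 5.41 and 5.48 in salt and 9.34, 10.21 and 9.34 in standard medium, a change of -4.15 (SE 0.36, adjusted p = 1.2e-15). AT1G19900, related to glyoxal oxidases, was at 5.77, 5.04 and 5.94 in salt and 9.26, 9.58 and 9.49 in standard medium, and fell by 3.86 (SE 0.31, adjusted p = 1.4e-16). Neither gene's groups overlapped. The other falls among the 15 ranged from -4.10 for AT1G62510 to -3.02 for AT2G42060. Among them were the respiratory burst oxidase gene AT4G11230 (-3.03), the lipid transfer type gene AT4G22460 (-3.34), the co-chaperone gene AT1G71000 (-3.29), AT1G66460 (-3.71), AT1G07590 (-3.49), AT4G00700 (-3.32), AT2G34810 (-3.23), AT2G19060 (-3.18), AT3G19320 (-3.13) and AT3G62040 (-3.06).

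**Figure D1:**
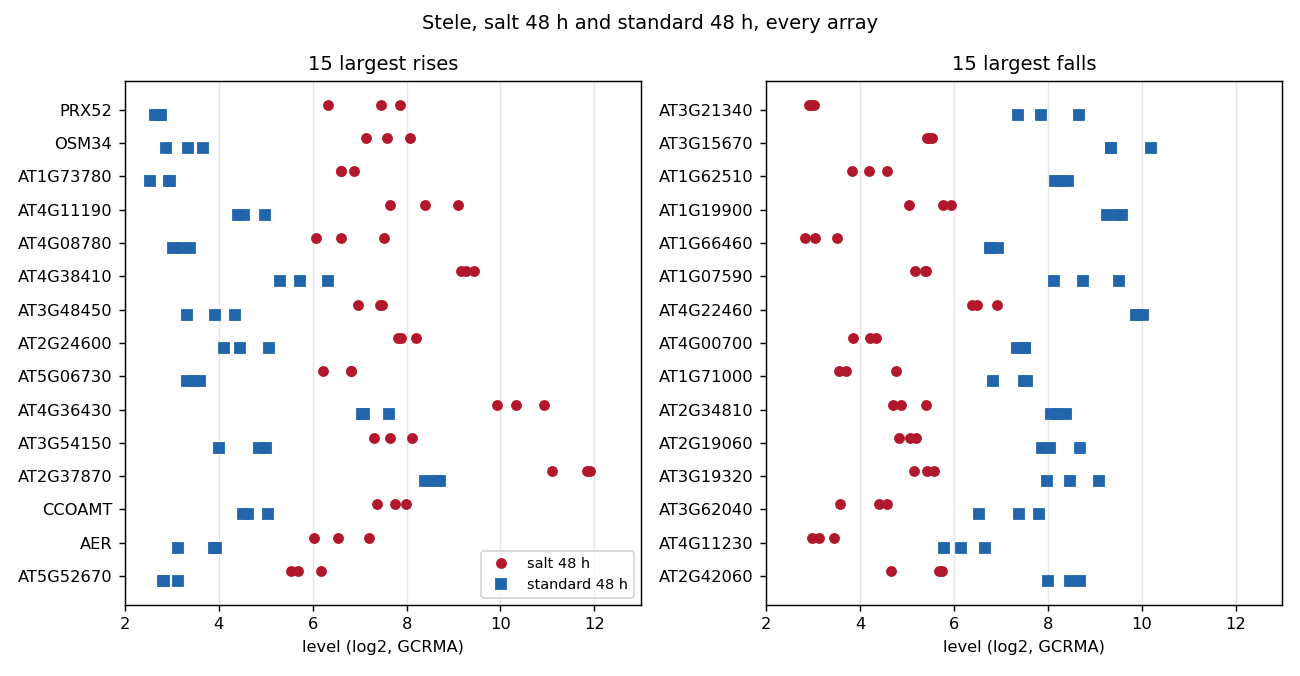
Levels (log2, horizontal axis) of the genes with the 15 largest rises (left) and the 15 largest falls (right), with 1 point per array: circles for the 3 salt 48 h arrays and squares for the 3 standard 48 h arrays. In each gene shown the salt points lie apart from the standard points, which is part of the rule by which these genes were chosen.

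Genes of the protein synthesis machinery rose together. The lists of gene families used here were compiled for this work from gene codes and symbols. Of the 39 lists 17 were added after the comparison was computed. Counts of list members beside the share of all genes therefore describe these data and are no independent support. Of 72 tested proteins of the large cytosolic ribosomal subunit 70 were higher and 0 lower, with a median change of 1.63, beside 0.098 over all genes. Of 42 small subunit proteins 41 were higher and 0 lower (median 1.61), and of 34 genes of ribosome biogenesis and RNA polymerase I, which transcribes ribosomal RNA, 32 were higher and 0 lower (median 1.62). Over all genes tested, 11.2% were called higher.

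Together the 143 genes made up 17.5% of the 816 higher genes. AT2G37190, of the large subunit, stood at 10.75, 10.63 and 10.92 in the salt arrays and 9.21, 8.13 and 8.69 in the standard arrays, a rise of 2.09 (SE 0.30, adjusted p = 3.1e-08). AT1G52930, of ribosome biogenesis, was at 7.67, 7.66 and 7.78 in salt and 5.43, 4.94 and 5.29 in standard medium, a rise of 2.48 (SE 0.36, adjusted p = 2.7e-08). NRPA1 and NRPA2, the large subunits of RNA polymerase I, rose by 1.22 (SE 0.26) and 1.62 (SE 0.34). Salt arrays were above standard arrays throughout these 4 genes. The median level of the large subunit genes was 10.16, 10.07 and 10.37 in the salt arrays and 8.80, 8.19 and 8.53 in the standard arrays. In the epidermis, cortex and endodermis the same list had medians of 1.66, 1.53 and 1.12, and 0 genes of the 3 lists were called in the test of the stele change against that of the other cell types (background 5.51%).

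Dividing cells and vascular patterning were represented by few probe sets. Of 8 tested genes of mitosis and DNA replication 5 were higher and 0 lower (median 1.12), but 3 were higher without standard replicate 2. Over all genes 11.2% were higher and 9.78% lower. TOPII, a topoisomerase that untangles replicated DNA, rose by 1.52 (SE 0.34), the histone gene HTB2 by 1.40 (SE 0.31) and the spindle checkpoint gene BUB3.1 by 1.24 (SE 0.23). PRL, a subunit of the replicative helicase, rose by 1.17 (SE 0.28), but its change without standard replicate 2 was 0.94. All 4 tested genes of vascular patterning were higher (median 1.46): LHW, SPT, CLE41 and PHV. The bHLH gene SPT (AT4G36930) was at 5.82, 5.66 and 5.18 in the salt arrays and 4.10, 3.77 and 3.48 in the standard arrays, a rise of 1.77 (SE 0.25). CLE41 (AT3G24770), whose peptide keeps procambium cells undifferentiated, was at 6.58, 5.90 and 6.37 in salt and 5.02, 4.69 and 4.96 in standard medium, a rise of 1.40 (SE 0.23). Both genes were higher in every salt array. The HD-ZIP gene PHV rose by 1.16 (SE 0.19), and its change was 0.95 without salt replicate 2 and 0.96 without standard replicate 2. Neither rise was confined to the stele. In the epidermis, cortex and endodermis the mitosis list had medians of 1.13, 0.81 and 0.86, with 5, 3 and 3 higher. The vascular list had 0.94, 0.69 and 0.75, with 2, 1 and 1 higher. Of all genes 15.6%, 11.8% and 12.1% were higher in those cell types. In the test of the stele change against the other cell types 0 genes of either list were called, or 2 vascular genes with no minimum difference.

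Class III peroxidases moved in both directions. Of 39 tested members 7 were higher (17.9%) and 8 lower (20.5%), with a median of -0.01, beside 11.2% and 9.78% of all genes. The rises were the larger changes. AT4G08780 was at 7.52, 6.60 and 6.06 in the salt arrays and 3.02 to 3.39 in the standard arrays (change 3.53, SE 0.28). AT5G06730 stood at 6.82, 6.80 and 6.21 in salt and 3.47, 3.59 and 3.33 in standard medium (change 3.15, SE 0.25). AT4G36430 was at 10.93, 10.32 and 9.93 in salt and 7.63, 7.04 and 7.09 in standard medium (change 3.14, SE 0.33). Groups did not overlap in any of these, and the falls went down to -2.22. The sign of the list median depends on the scaling, as it was 0.04 after quantile normalization. Against the 1 h standard arrays 7 members were higher and 15 lower.

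Other wall genes were also split. Dirigent proteins, which guide the coupling of lignin and lignan precursors, had 2 genes higher and 3 lower among 7 tested (median 0.14). The shares over all genes were 11.2% and 9.78%. AT4G11190 was at 7.65, 8.40 and 9.09 in the salt arrays and 4.4 to 4.99 in the standard arrays, a rise of 3.74 (SE 0.29). Its level after 1 h on standard medium was 7.66 ± 0.22, and against that group the change was 0.72 and the call was lost. AT4G11210 was at 9.36, 9.65 and 9.58 in salt and 7.07, 6.89 and 6.94 in standard medium, a rise of 2.56 (SE 0.35). AT2G21100 fell by 1.57 (SE 0.21) and AT2G39430 by 1.07 (SE 0.23). Among 5 genes that attach glucose to lignin precursors or remove it, the glucosidase gene BGLU45 rose by 1.49 (SE 0.28), and the glucosyltransferase genes UGT72E2 and UGT72E3 fell by 1.49 each (SE 0.17 and 0.21), with a list median of -0.42.

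Genes that loosen or crosslink the wall followed. Expansins, which loosen walls in growing cells, had 3 genes higher and 3 lower among 12 tested (median -0.24). That is 25% each way, beside 11.2% and 9.78% of all genes. EXPA15 (AT2G03090) was at 8.25, 8.39 and 7.71 in the salt arrays and 5.60, 5.71 and 5.38 in the standard arrays, a rise of 2.55 (SE 0.38). EXPB1 (AT2G20750) stood at 5.91, 5.67 and 5.77 in salt and 7.25, 8.59 and 7.74 in standard medium, a change of -2.08 (SE 0.32). EXLA3 rose by 2.29 (SE 0.22). No overlap was seen in these 3 genes. The other falls of the list were EXPA7 and EXPA18, the root hair markers given above. None of 9 xyloglucan endotransglucosylases, which cut and rejoin wall polymers, was called (median -0.33), and XTH19 changed by -0.33 (SE 0.16). Against the 1 h standard arrays 1 of them was higher and 4 lower (median -0.96), and against the mean of both standard groups 2 were lower. Of 3 respiratory burst oxidases, which make superoxide outside the cell, AT4G11230 fell by 3.03 (SE 0.22) and AT4G25090 by 2.93 (SE 0.22). Genes of the secondary wall and laccases (2 tested, median -0.03), of primary wall cellulose (COB alone, -0.37) and of the phenylpropanoid pathway (2 tested, median 0.77) gave no calls. HCT, an enzyme of that pathway, changed by 0.91 (SE 0.20, adjusted p = 8.0e-05), short of the minimum change.

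LEA and related protective proteins moved in both directions. Of 11 tested LEA, dehydrin and cold or dehydration responsive genes 2 were higher and 2 lower, and 9 of the 11 changes were below 0 (median -0.27). LEA4-5 (AT5G06760) was at 8.15, 8.33 and 8.54 in the salt arrays and 9.92, 10.37 and 10.04 in the standard arrays, a fall of 1.77 (SE 0.29, adjusted p = 5.2e-07), with every salt array below every standard array. Against the 1 h standard arrays its change was -0.29 and the call was lost. The list then had 3 genes higher and 1 lower and a median of 0.09. The list's median level on standard medium averaged 5.27 at 1 h and 6.26 at 48 h. AT3G17520 rose by 1.18 (SE 0.33), but by 0.97 without salt replicate 3. The thaumatin and chitinase list had 8 higher and 2 lower among 18 tested (median 0.23), beside the same shares of all genes. The chitinase gene AT2G43620 was at 9.25, 8.78 and 8.45 in salt and 5.70, 6.39 and 6.10 in standard medium (change 2.77, SE 0.25). Its level after 1 h on standard medium was 8.53 ± 0.66, and against that group its change was 0.30 and the call was lost. AT2G28790 rose by 2.53 (SE 0.41) and ATLP-1 by 2.09 (SE 0.36), both of the thaumatin family.

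Lipid transfer type proteins held 2 genes higher and 4 lower among 12 tested (median -0.32), beside 11.2% and 9.78% of all genes. AT2G37870 was at 11.91, 11.84 and 11.11 in the salt arrays and 8.72, 8.38 and 8.64 in the standard arrays, a rise of 3.04 (SE 0.32). AT4G22460 stood at 6.49, 6.93 and 6.37 in salt and 9.87, 10.03 and 9.90 in standard medium, a change of -3.34 (SE 0.23). In each the groups were well apart. AT1G62510, the largest fall of the list, is the cortex marker given above. Of 9 SWEET genes, which encode sugar carriers, 0 were higher and 2 lower (median -0.18), beside the same shares of all genes. SWEET3 (AT5G53190) was at 3.31, 3.65 and 3.33 in salt and 5.70, 5.74 and 5.98 in standard medium, a change of -2.38 (SE 0.16). Its standard 1 h level was 3.56 ± 0.06, so the change against that group was -0.13 and the call was lost. SWEET16 overlapped between the groups, at 5.51, 6.19 and 6.34 in salt and 7.67, 6.15 and 7.57 in standard medium (change -1.12, SE 0.25). The call of SWEET16 was lost without salt replicate 1 (-0.86), standard replicate 1 (-0.85) or standard replicate 3 (-0.90). Among 3 NPF transporter genes AT3G45710 fell by 1.31 (SE 0.23) and 0 were higher (median 0.67), and the proline, raffinose and sucrose list had 0 of 2 called (median 0.60).

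Auxin response genes were lower or not called. Of 8 tested genes of auxin response and conjugation 0 were higher and 5 lower, with a median of -1.31, beside 11.2% and 9.78% of all genes. WAG2 (AT3G14370), a kinase that acts on auxin efflux carriers, was at 4.88, 4.49 and 4.82 in the salt arrays and 6.46, 8.38 and 7.73 in the standard arrays, a change of -2.79 (SE 0.31, adjusted p = 1.4e-11). GH3.17 and GH3.3, which join auxin to amino acids, fell by 1.57 (SE 0.18) and 1.38 (SE 0.37), and the auxin repressor gene IAA30 by 1.62 (SE 0.33). WAG2 and the other named genes of the list had all salt arrays below all standard arrays. Against the 1 h standard arrays only 1 of the 8 genes was lower, and the changes of GH3.17, GH3.3 and IAA30 were -0.94, -0.20 and -0.96.

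Among other signalling and stress lists, 6 of 9 low oxygen genes were higher and 0 lower (median 1.82). Beside every list in this paragraph stand 11.2% higher and 9.78% lower over all genes in the stele. Low oxygen genes also rose elsewhere, with 9, 7 and 7 of the 9 higher in the epidermis, cortex and endodermis (medians 1.988, 1.775 and 1.481). Of all genes 15.6%, 11.8% and 12.1% were higher in those cell types. In the stele AT4G24110 was at 8.19, 7.85 and 8.35 in the salt arrays and 5.77 to 6.18 in the standard arrays, a rise of 2.15 (SE 0.20), with no overlap. AT5G10040, AT4G27450 and AT3G27220 rose by 1.93, 1.90 and 1.86. Autophagy genes had 0 higher and 3 lower of 11 (median -0.28): ATG8E (-1.21), ATG8H (-1.08) and APG8A (adjusted p = 8.0e-08, with a change just past 1), all encoding ATG8, the protein that coats autophagosomes. Without salt replicate 1 the changes of ATG8H and APG8A were -0.99 and -0.98, and 1 gene of the list was called. Set against the 1 h standard arrays, the list had 1 gene higher and 2 lower and a median of 0.20, so its direction turned. APG8A was also below the minimum change without salt replicate 3 (-0.95) or standard replicate 2 (-0.93). JRG21 (AT3G55970), a jasmonate-response dioxygenase, was higher, at 7.28, 8.29 and 8.69 in salt and 6.69, 5.23 and 6.50 in standard medium (change 1.95, SE 0.40, no overlap), and was the 1 call among 3 jasmonate genes (median -0.08). With the 1 h standard arrays as the reference 2 of the 3 were higher, with a median of 1.33. The mitochondrial stress list had 0 of 2 called (median -0.51) and EIN3, the 1 ethylene gene tested, changed by -0.09. Among 26 tested transcription factors whose symbol or synonym is a family name with a number, 2 were higher and 2 lower. This rule misses other transcription factor genes, such as LHW and SPT, which were both higher. The fall of bZIP58, by 2.56 (SE 0.24), was the largest change among the calls of the 26. The other calls of the 26 were PHV, WRKY22 (1.08, and 0.84 without standard replicate 2) and bZIP52 (-1.06, with -0.93 without salt replicate 2 and -0.87 without standard replicate 2).

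**Figure D2:**
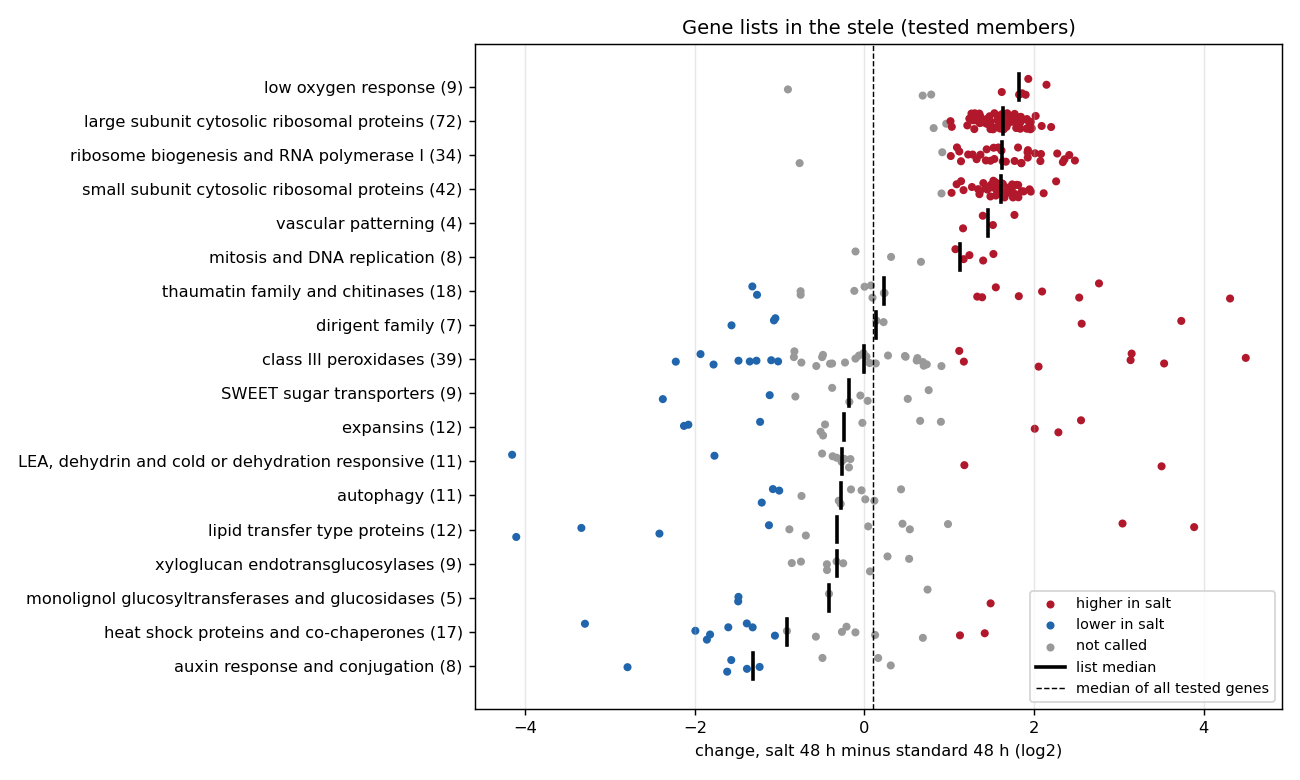
Change in the stele (salt 48 h minus standard 48 h, log2, horizontal axis) of every tested member of the gene lists with 4 or more tested members, 1 point per gene. Red points were higher in salt, blue points were lower and grey points were not called. Black bars are list medians, the dashed line is the median of all tested genes (0.098), and numbers in brackets are tested members. The medians of the 3 ribosome lists lie between 1.61 and 1.63, and peroxidases, expansins and lipid transfer type genes spread to both sides of 0.

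Heat shock proteins and their co-chaperones, which keep proteins folded, were more often lower than higher in the stele. Of 17 tested genes 2 were higher and 8 lower (median -0.91), beside 11.2% and 9.78% of all genes. The list's median level was 6.09, 7.45 and 6.21 in the salt arrays and 8.38, 6.93 and 7.93 in the standard arrays, so salt replicate 2 was above standard replicate 2 and the groups overlapped. In the other cell types the list was higher in salt. Of the 17 genes 9 were higher and 0 lower in the epidermis (median 1.17), and 12 and 0 in the cortex (1.56). In the endodermis 11 were higher and 1 lower (1.51). Over all genes the shares were 15.6% and 12.6% in the epidermis, 11.8% and 9.61% in the cortex, 12.1% and 13.9% in the endodermis. The cortex arrays were at 8.17, 8.01 and 8.10 in salt and 6.91, 6.83 and 6.82 in standard medium. The endodermis arrays were at 6.59, 7.40 and 7.26 in salt and 4.98, 5.93 and 5.83 in standard medium. Neither overlapped, whereas the epidermis did, at 8.16, 7.92 and 6.28 in salt and 5.85, 7.31 and 6.44 in standard medium.

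The small heat shock protein gene AT1G54050 shows the pattern. It was at 6.66, 8.14 and 7.16 in the stele's salt arrays and 9.89, 8.34 and 9.69 in its standard arrays, a change of -1.99 (SE 0.69, adjusted p = 0.011). In the epidermis, cortex and endodermis it changed by 2.34, 1.56 and 2.45. The stele call was lost without salt replicate 1 (-1.66, adjusted p = 0.064) or standard replicate 1 (-1.70, adjusted p = 0.056). AT1G53540 and AT1G52560 changed by -1.86 (SE 0.68) and -1.60 (SE 0.62), and both calls were lost without salt replicate 1 (-1.51 and -1.26), salt replicate 3 (-1.65 and -1.40), standard replicate 1 (-1.40 and -1.25) or standard replicate 3 (-1.68 and -1.43). The co-chaperone gene AT1G71000 did not overlap, at 3.55, 4.77 and 3.69 in salt and 7.49, 6.84 and 7.56 in standard medium. With 1 array left out the list's lower count ran from 3 (without salt replicate 1) to 9 (without salt replicate 2 or standard replicate 2), and it was 4 without standard replicate 1 and 5 without salt replicate 3 or standard replicate 3. Against the 1 h standard arrays it was 2. The test of the difference itself, the stele change minus the mean change of the other 3 types, was negative in 13 of the 17 genes and positive in 0 (background 2.2%), with a median of -2.10. With 1 stele array left out the negative count ran from 9 (without salt replicate 1, median -1.72) to 14 (without standard replicate 2). In each of these 0 were positive. Arrays of the other cell types were not left out, and the 1 h reference was not tried for this difference.

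**Figure D3:**
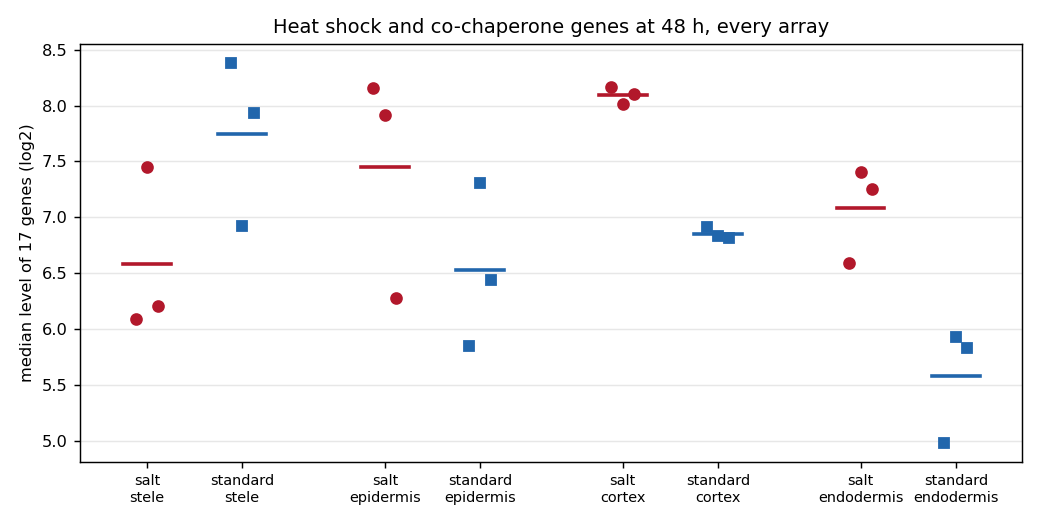
Median level (log2, vertical axis) of the 17 tested heat shock and co-chaperone genes in every array at 48 h, with salt (red circles) left of standard (blue squares) in each cell type. Horizontal bars are means of 3 arrays. The salt bar is below the standard bar in the stele and above it in the other 3 cell types.

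The difference between cell types was then tested over all genes. The stele change exceeded the mean change of the epidermis, cortex and endodermis in 241 genes (3.31%) and was below it in 160 (2.2%), 401 in all (5.51%). Of these, 150 were also called in the stele itself. Reporter line, sort and cell type cannot be told apart in this test. AT1G73780 had the largest positive difference, 3.96 (SE 0.29, adjusted p = 1.8e-17), since it changed by 3.89 in the stele and by -0.12, -0.90 and 0.79 in the epidermis, cortex and endodermis. The dirigent gene AT4G11210 changed by 2.56 in the stele and by -0.56, -0.84 and -0.83 in the others, a difference of 3.31 (SE 0.41). AT2G19970 (3.24), AT3G59370 (3.22), AT1G12080 (3.13) and PRX52 (3.02) followed. PRX52 is no gene of the stele alone: its change was 4.05 in the endodermis, beside -0.13 in the epidermis and 0.52 in the cortex, and the stele and endodermis were not tested against each other.

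Wall gene lists differed in how many members passed this test, beside 3.31% positive and 2.2% negative over all genes. Of 39 peroxidases 9 were positive and 2 negative, of 12 lipid transfer type genes 5 and 2, of 12 expansins 3 and 0, of 7 dirigent genes 3 and 0, and of 9 xyloglucan endotransglucosylases 2 and 0. Of 5 monolignol glucosyltransferases and glucosidases 0 were positive and 1 negative (0 negative without standard replicate 1), and the 2 phenylpropanoid genes, the 2 secondary wall and laccase genes and COB gave 0 calls. Expansins had 2 positive without salt replicate 1 or salt replicate 2, and dirigent genes 2 without salt replicate 1, standard replicate 1 or standard replicate 3. Of 18 thaumatin and chitinase genes, a defence list, 3 were positive and 0 negative, but 1 was positive without salt replicate 1, salt replicate 2, standard replicate 2 or standard replicate 3, and 1 with no filter on low values. Calls within the other cell types were uneven. Shares of all genes, higher and lower, were 15.6% and 12.6% (epidermis), 11.8% and 9.61% (cortex), 12.1% and 13.9% (endodermis), beside 11.2% and 9.78% (stele). Peroxidase counts, higher and lower, were 1 and 14 (epidermis), 7 and 9 (cortex), 12 and 14 (endodermis), beside 7 and 8 (stele). Dirigent counts, in that order, were 0 and 5, 1 and 0, 1 and 0, then 2 and 3. Lipid transfer type counts were 1 and 8, 2 and 5, 2 and 6, then 2 and 4. Which cell type set the differences of these lists was not tested. EXPA15 changed by 2.55 in the stele and by 0.66, 0.07 and 0.42 in the epidermis, cortex and endodermis (difference 2.17, SE 0.43). EXPB1 fell in all 4 cell types, with changes of -2.08 in the stele and -4.21, -2.79 and -4.56 in the others, so its positive difference of 1.78 (SE 0.37) is a smaller fall. On the negative side, AT2G22760, a bHLH gene, changed by 0.58 in the stele and by 3.18, 3.53 and 3.08 in the others (difference -2.69, SE 0.53). AT1G26800 was called lower in the stele (-1.58) and had changes of 0.69, 0.89 and 1.89 in the others (difference -2.73, SE 0.47). JRG21 rose less in the stele (1.95) than in the others (3.66, 3.91 and 4.47), with a difference of -2.06 (SE 0.46).

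Most stele calls were shared with another cell type, whose control arrays are separate. The stele and epidermis shared 602 genes called higher, 73.8% of the stele's and 53% of the epidermis's, where 15.6% of all genes were called higher in the epidermis. They shared 509 called lower, 71.5% and 55.4% of the lists (background 12.6%). With the cortex 548 higher genes were shared (67.2% and 63.6%, background 11.8%) and 407 lower genes (57.2% and 58.1%, background 9.61%). With the endodermis the counts were 486 (59.6% and 55.2%, background 12.1%) and 490 (68.8% and 48.3%, background 13.9%). In all 4 cell types 363 genes were higher and 295 lower. There were 91 genes called higher and 79 called lower in the stele and in no other cell type, but the test of the difference itself was passed by only 30 and 22 of them.

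**Figure D4:**
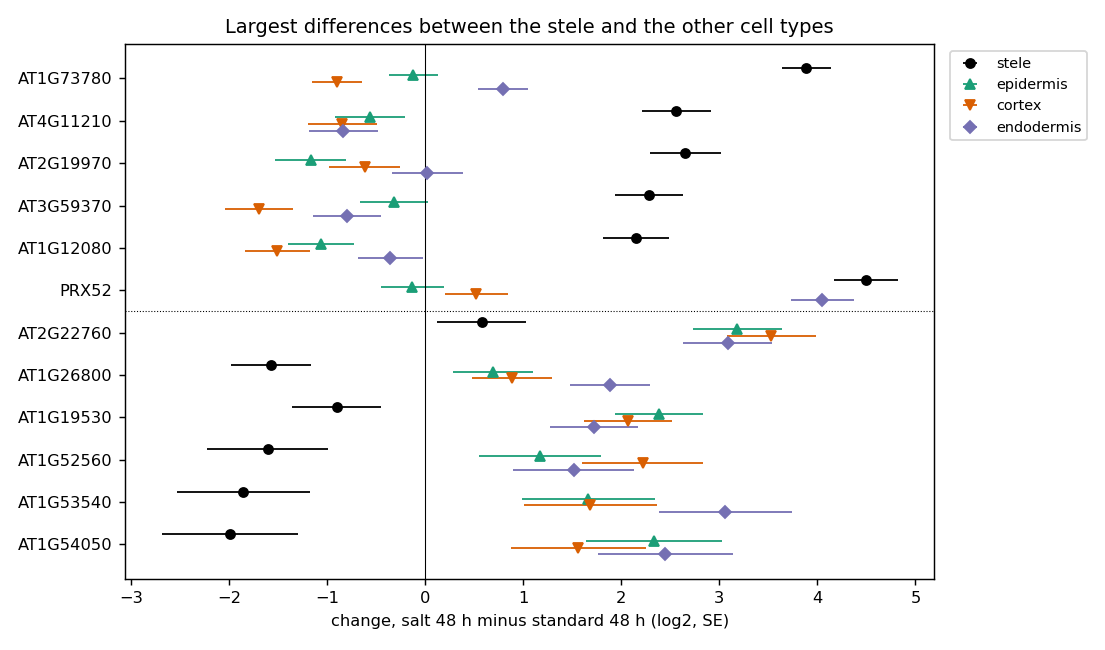
Change at 48 h (salt minus standard, log2, with SE, horizontal axis) in each of the 4 cell types for the genes with the 6 largest positive (top) and 6 largest negative (bottom) differences between the stele and the mean of the other 3. The stele points (black) stand apart from the others except for PRX52, where the endodermis change of 4.05 is close to the stele change of 4.50.

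The other stele arrays give levels along the way to 48 h, side by side with the standard arrays that serve every time point, and no test was made of the order. PRX52 had its peak early: its mean was 2.97 on standard medium for 1 h, 2.72 for 48 h, and 5.15, 8.48, 10.41, 6.97, 6.05 and 7.21 after 1, 3, 8, 20, 32 and 48 h of salt. OSM34 was late, at 3.05 and 3.29 on standard medium and 4.01, 3.49, 3.91, 5.63, 7.22 and 7.59 along the salt times. The LEA gene AT3G15670 was at 7.35 and 9.63 on standard medium and 10.41, 9.28, 7.86, 6.53, 5.75 and 5.48 in salt, so its 48 h level was the lowest of the course. LEA4-5 was at 8.63 and 10.11 on standard medium and 11.57, 10.77, 10.56, 9.60, 9.11 and 8.34 in salt. The dehydrin gene AT4G38410 was at 5.27 and 5.78 on standard medium and between 6.96 and 9.28 at all salt times.

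EXPB1 and WAG2 were already low after 1 h of salt (5.30 and 5.42) and stayed between 4.39 and 5.96. EXPA15 was at 6.72 ± 1.60 and 5.56 ± 0.17 on standard medium for 1 h and 48 h (SD, n = 3), and at 8.12 ± 0.36 after 48 h of salt. The large subunit ribosomal list had a mean level of 8.74 and 8.51 on standard medium, and 9.51, 9.43, 9.55, 9.63, 9.84 and 10.2 along the salt times, its highest value being at 48 h. The heat shock list was at 6.57 and 7.75 on standard medium and 8.02, 6.42, 6.09, 6.22, 7.50 and 6.58 in salt, so the 48 h standard arrays were themselves above the 1 h standard arrays.

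**Figure D5:**
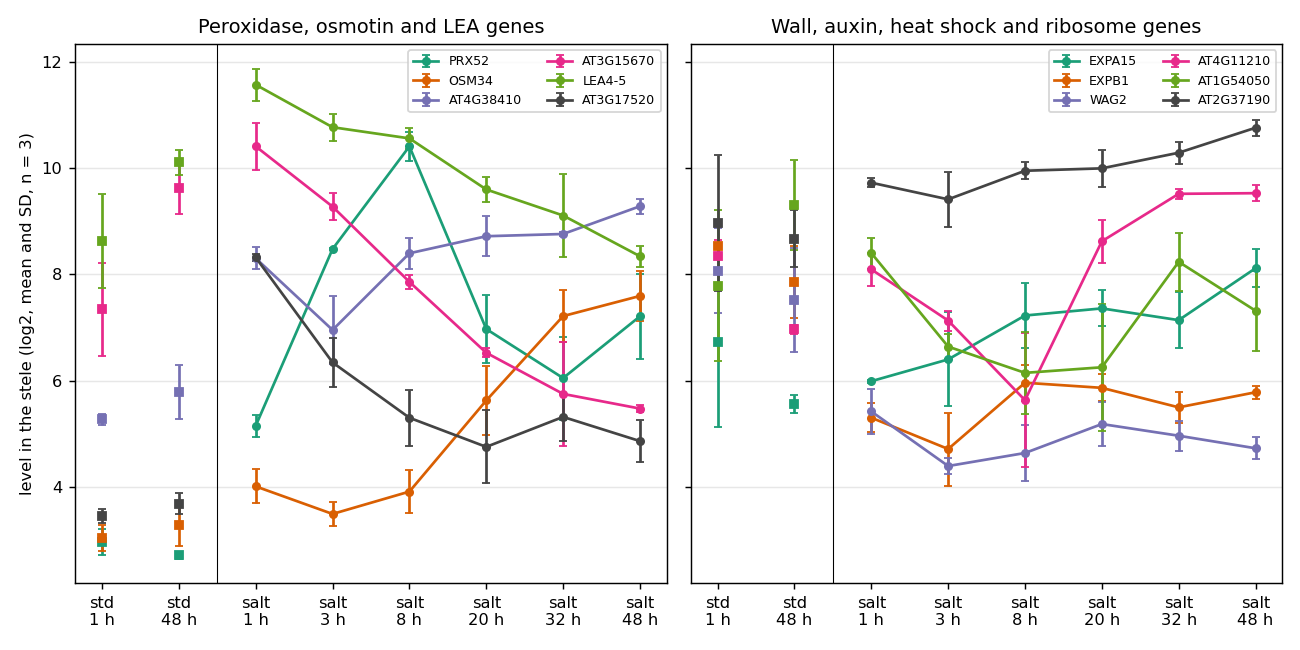
Mean level in the stele (log2, with SD, n = 3, vertical axis) of 12 genes on standard medium (std, squares) for 1 h and 48 h and in salt (circles) for 1 to 48 h. PRX52 peaks at 8 h (10.41), OSM34 is highest at 48 h (7.59), and AT3G15670 and LEA4-5 are highest at 1 h of salt (10.41 and 11.57) and lowest at 48 h.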

How the data were processed

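Per the labels' protocols, RNA of sorted protoplasts went through a one-cycle amplification, and the labelled cRNA carried biotin. What the authors deposited are log2 levels per probe set, made by the authors with GCRMA in Affymetrix Expression Console, per the submitters' processing notes, which give no versions. GCRMA takes probe sequence into account when it removes background, and it puts arrays on a common scale. No detection calls or counts come with them, so the number of arrays limits the precision. Nothing was rescaled.

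Of 22810 probe sets, 64 are controls and 13513 pair with exactly 1 gene in the platform annotation, 503 match more than 1 gene and 8730 have no entry. Probe sets of the last 2 kinds were kept out. The probe set with the highest mean stood for a gene (157 left out), giving 13356 genes, of which 13286 matched TAIR10.1 names. Genes with a mean of 5 or more in at least 1 of 32 groups were tested (7281).

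The fit was limma 3.58.1 in R 4.3.3, 1 mean per group over 96 arrays (64 residual degrees of freedom), eBayes, two-sided, Benjamini-Hochberg over 7281 genes. The second contrast set the stele change against the mean change of the other 3 cell types. The fit was tested on simulated data. Figures were drawn with Python 3.11.15 and matplotlib 3.10.9.

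Named genes are the 15 largest called rises and falls with non-overlapping arrays, up to 4 called members per list (or its brightest tested member where none was called), the 6 largest called differences each way between the stele and the other types, and up to 3 rising and falling transcription factors picked by symbol or synonym. NRPA1 and NRPA2 fall outside this rule and were chosen after their values were seen. The members and lists were chosen with earlier results of these data known, and 17 of 39 lists were added after the comparison was computed. Of the lists 31 had a tested member. ABA, aquaporin, auxin transport, redox, root cap, suberin, ion transport and cytokinin lists had none and were not analysed here.

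Alternatives were other fits, references, scalings, filters and probe sets, no minimum change, a replicate block and each of the 6 stele arrays left out. Other references were tried for the stele comparison only.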

Additional observations from a re-analysis of the deposited data

Results flagged for a closer look

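The change in the stele differed from the mean change of the other 3 cell types, by the limma test of the difference itself, in 241 genes with a positive and 160 with a negative difference (log2, stele minus the others). Reporter line, sort and cell type cannot be told apart in these differences. Among lipid transfer type genes the differences were 3.96 for AT1G73780, 1.61 for AT2G37870 and -1.81 for AT1G62510. Among peroxidases they were 3.02 for PRX52, 1.58 for AT5G06730, 1.47 for AT4G08780 and 1.23 for AT4G36430, and among dirigent genes 3.31 for AT4G11210 and 1.53 for AT4G11190. The expansins EXPA15 and EXPB1 had 2.17 and 1.78, osmotin OSM34 had 1.5 and the LEA gene AT3G17520 had 1.21. AT2G19970, AT3G59370 and AT1G12080 had 3.24, 3.22 and 3.13.

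Heat shock and co-chaperone genes had negative differences, -4.11 for AT1G54050, -3.99 for AT1G53540, -3.24 for AT1G52560, -2.61 for AT1G71000 and -2.60 for AT5G51440. Other negative differences were -2.96 for the low oxygen gene AT1G19530, -2.73 for AT1G26800, -2.69 for AT2G22760, -2.06 for JRG21, -1.77 for the respiratory burst oxidase gene AT4G11230, -1.55 each for SWEET16 and AT3G62040, and -1.49 for SWEET3. Smaller ones were -1.28 for AT1G66460, -1.24 for AT2G42060, -1.21 for GH3.3, -1.14 for BGLU45 and -1.09 for AT4G00700. The calls of AT1G62510, GH3.3, AT3G17520, AT4G00700, AT4G36430, AT2G42060 and BGLU45 were lost in at least 1 of the settings tried. None of these settings changed the reference or left out 1 array of another cell type.

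Probe sets that the comparisons did not use were called at a share near that of the genes tested. Of 9233 probe sets that pair with several genes or are not listed in the annotation, 6346 passed the level filter. Between salt and standard medium 1336 were called (686 higher and 650 lower), 21.1% of those that passed, beside 21% of the genes tested. Changes among them included 4.47, 4.03, -3.73 and -3.59. The rankings of the 15 largest rises and falls cover only probe sets with exactly 1 gene.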

How the results depend on the processing

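The stele counts of 816 higher and 712 lower genes stayed within 1.5 times under the other fits, references, scalings, filters and probe sets. The genes behind the counts changed more with the reference. Of the 1528 calls 1169 remained against the 1 h standard arrays, where 1869 genes were called. Against the mean of both standard groups 1314 remained, and 1621 were called. With no minimum change, 4158 genes were called (2390 higher and 1768 lower), and for the stele against the other cell types 1245 (712 positive and 533 negative). With 1 stele array left out the stele counts ran from 1337 to 1722 in all, 688 to 932 higher and 649 to 790 lower. The counts of 688 and 649 came without standard replicate 2. Counts against the other types ran from 362 to 465 in all, 195 to 272 positive and 154 to 214 negative. The deviations of same-numbered salt and standard arrays correlated at 0.027, -0.225 and -0.060, and those of differently numbered arrays at -0.198 to 0.239. With 3 arrays a group these values cannot tell whether the numbers pair the samples. The replicate block left 816 and 712 genes called, with 243 and 161 for the second contrast. Of 94 named calls 81 held with each of the 6 arrays left out. With the 1 h standard arrays as the reference 2 named genes reversed: AT1G19530 to 2.53 (adjusted p = 1.9e-06) and SWEET16 to 0.16 (adjusted p = 0.605). The cause was not tested. That reference also ended the calls of PHV (0.91), PRL (0.90), WRKY22 (0.56), ATG8H (-0.76), AT1G52560 (-0.70), AT1G53540 (-0.09) and AT1G54050 (-0.47). It also turned the medians of the dirigent (-0.14), expansin (0.08), SWEET (0.16, with 1 higher and 0 lower), monolignol glucosyltransferase (0.52), secondary wall (0.53) and mitochondrial stress (0.06) lists. EXPA18 lost its call in a fit on the 24 stele arrays (adjusted p = 0.0576) and SWEET16 in a fit on the 6 arrays (0.0508). Of 34 named differences between the stele and the other types 7 lost their call in at least 1 of 14 settings and 0 reversed. All 14 kept the 48 h standard arrays as the reference, and only the stele arrays were left out 1 at a time. How these differences depend on the reference or on single arrays of the other cell types was not tested. Without detection calls the low levels cannot be set against background, and 3 arrays a group limit the precision.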
